A study of Homo sapiens with 6 samples.

Results

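The genes described here were read in RNA-Seq data of DU145 cells. They encode 6 cyclin-dependent kinase (CDK) inhibitors, SKP2 and CKS1B of a ubiquitin ligase that removes at least 1 of these inhibitors, and the related CKS2. They are CDKN1A, CDKN1B and CDKN1C of the CIP/KIP family, CDKN2B, CDKN2C and CDKN2D of the INK4 family, and SKP2, CKS1B and CKS2. The 9 genes were chosen by name and function and matched to the gene symbols of a deposited table of 27381 genes, with the values of that table already known. Their values are therefore descriptions, and none of them is a test. All 9 genes were in the table and all 9 passed the filter on low values, which kept the 12822 genes that reached 1 FPKM in any column. CDKN1C passed through the column labelled CD24 KO alone.

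DU145 is a human cell line from metastatic prostate cancer that lacks the RB protein. The labels give 6 libraries in 3 conditions, 2 each for a scrambled sgRNA control (Scr), a CD24 knockout (CD24 KO) and an RCC2 knockout (RCC2 KO). The study's methods describe CRISPR/Cas9 editing from a plasmid that also encodes GFP, sorting of GFP-positive cells and expansion of single clones, so a condition rests on clones of 1 cell line, and clone and knockout cannot be told apart. The control cells went through Cas9 as well, with an sgRNA that has no specific target. The table holds 1 FPKM value per gene and condition, which counts fragments relative to the length of the transcript and the size of the library. No difference has a replicate check, no SD or test can be given, and the depth behind each value is unknown. The column labelled RCC2 KO has a name that fits both RCC2 KO libraries and equals the full label of one of them, and whether 1 or both went into it is not known.

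The RNA levels of the 2 targeted genes did not go with the labels. CD24 was at 93.2 FPKM in the column labelled Scr, 309 in that labelled CD24 KO and 214 in that labelled RCC2 KO. The position listed for CD24 is on chromosome Y, from 21034387 to 21438350, so which sequences these values count is uncertain. RCC2 was at 37.8, 14.2 and 41.8 FPKM in the same order. The study reports that it checked its knockout cells with flow cytometry, Western blotting and Sanger sequencing. Those checks read protein and DNA, while the values here are of RNA. Every direction below rests on the labels as they stand. Markers of an epithelial line were present, since KRT8, KRT18, KRT19, EPCAM and CDH1 lay between 23.7 and 348 FPKM in the 3 columns, while KLK3 and KLK2, kallikrein genes of prostate epithelium, were listed at 0. All 14 markers of fibroblasts, leukocytes and endothelium were under 1 FPKM in every column.

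CDK inhibitors hold back the kinases that drive the cell cycle. CIP/KIP proteins (p21, p27 and p57) bind cyclin-CDK complexes, above all those of CDK2, while INK4 proteins (p15, p18 and p19) bind CDK4 and CDK6 alone and block the phosphorylation of RB. The amount of p27 is set largely by its removal. SKP2 is the F-box protein of an SCF ubiquitin ligase that recognizes phosphorylated p27, CKS1B is the small cofactor it needs for this, and CKS2 is the closely related CKS protein that, like CKS1B, binds CDKs. A change in this removal need not be seen in the RNA of CDKN1B, and RNA alone was measured here.

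The upstream sequences of SKP2 and CDKN2B, which were past 2-fold in the column labelled CD24 KO, and of the CKS genes, which differed little, are shown first, so that the 2 kinds can be compared. RefSeq on GRCh38.p14 gives 10 start windows for 8 of the 9 genes, all but CDKN1C, and from each the 250 bases before the transcription start were read. Capitals mark 3 kinds of short motif found on either strand. These are the CCAAT box (CCAAT), bound by NF-Y, the GC box (GGGCGG), bound by SP1-type factors, and the cell cycle genes homology region or CHR (TTTGAA or TTCGAA), an element of many genes that peak in G2 and mitosis. SKP2, whose level was lower in the column labelled CD24 KO, starts on the plus strand after chr5:36151861-36152110.
SKP2: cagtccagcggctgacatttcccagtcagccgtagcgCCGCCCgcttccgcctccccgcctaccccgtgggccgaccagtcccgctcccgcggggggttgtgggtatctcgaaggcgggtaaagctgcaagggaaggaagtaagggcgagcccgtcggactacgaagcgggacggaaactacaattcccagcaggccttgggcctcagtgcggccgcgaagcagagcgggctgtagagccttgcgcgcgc
CDKN2B, which was higher in the same column, lies on the minus strand and starts after chr9:22009306-22009555.
CDKN2B: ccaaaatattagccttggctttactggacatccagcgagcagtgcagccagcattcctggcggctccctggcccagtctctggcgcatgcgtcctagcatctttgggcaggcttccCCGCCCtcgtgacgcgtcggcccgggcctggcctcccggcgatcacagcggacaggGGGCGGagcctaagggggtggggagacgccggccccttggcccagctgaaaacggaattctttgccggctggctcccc
The start of CKS1B, the cofactor of SKP2, follows chr1:154974431-154974680 on the plus strand.
CKS1B: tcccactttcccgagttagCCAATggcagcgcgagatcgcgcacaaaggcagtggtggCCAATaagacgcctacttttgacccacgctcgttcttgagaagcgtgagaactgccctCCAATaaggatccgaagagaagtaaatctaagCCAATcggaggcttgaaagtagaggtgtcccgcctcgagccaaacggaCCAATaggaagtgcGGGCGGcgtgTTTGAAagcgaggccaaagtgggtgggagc
The start of CKS2 follows chr9:89310945-89311194 on the plus strand.
CKS2: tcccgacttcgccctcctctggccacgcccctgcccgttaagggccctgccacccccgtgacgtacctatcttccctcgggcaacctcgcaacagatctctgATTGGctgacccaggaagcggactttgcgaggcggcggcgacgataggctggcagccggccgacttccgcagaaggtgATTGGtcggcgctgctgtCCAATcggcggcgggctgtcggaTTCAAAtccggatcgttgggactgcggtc

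The upstream sequences of the CKS genes share 2 motifs that the SKP2 sequence does not have. CKS1B held 5 CCAAT boxes, a GC box and a CHR that lay 30 to 25 bases before the start, and CKS2 held 3 CCAAT boxes and a CHR from 29 to 24 bases before the start, on the other strand. SKP2 held neither motif and a single GC box, and CDKN2B held 2 GC boxes. Of the 10 windows, 2 had a CHR, 5 a CCAAT box and 8 a GC box, against 14.3%, 32% and 42.6% of all 35116 windows of the same length. CDKN1A had 4 GC boxes, CDKN1B 2 CCAAT boxes and 1 GC box, and CDKN2D 1 CCAAT box and 2 GC boxes. An E-box (CACGTG) was read in 2 of the 3 windows of CDKN2C and in 6.34% of all windows. An E2F motif (TTTCCCGC or TTTGGCGC) and a TCF/LEF motif (CTTTGAT) were in none of the 10 windows and in 1.93% and 2.26% of all windows, respectively. No 2 different motifs overlapped in these windows, while GC boxes that overlap each other were counted separately. A match shows the letters and not a bound site, and a motif outside the window would be missed.

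SKP2 was the member with the lowest change in the column labelled CD24 KO. It was at 35.8 FPKM in Scr, 15.1 in CD24 KO and 36.9 in RCC2 KO, so the columns labelled Scr and RCC2 KO lay close together and that labelled CD24 KO apart from both. On the scale of log2(FPKM + 1), used for all differences here and on which changes of low values are understated, CD24 KO was lower than Scr by -1.19, and RCC2 KO differed from Scr by 0.043. Of the 12822 genes, 1.62% had a change as low or lower in CD24 KO. With each column scaled to the same sum, the difference was -0.99 and so just short of 2-fold. The table gives positions that were read as hg19, with SKP2 on chromosome 5 from 36152145 to 36184142.

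CKS1B and CKS2 did not follow SKP2. CKS1B was at 31.5 FPKM in Scr, 35.9 in CD24 KO and 35.9 in RCC2 KO, which are log2 differences from Scr of 0.18 and 0.19. CKS2 was at 132, 134 and 149 FPKM, with log2 differences of 0.016 and 0.17, and had the highest level of the 9 genes in each column. The cofactor RNA was thus as high in the column labelled CD24 KO as in that labelled RCC2 KO, where SKP2 was as high as in Scr. GENCODE 29 names 6 processed pseudogenes of CKS1B, none of which has a row in the table, and how fragments that match several copies were assigned is not given in the sources used here. CKS1B lies on chromosome 1 from 154947118 to 154951725, and CKS2 on chromosome 9 from 91926110 to 91931618.

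**Figure D1:**
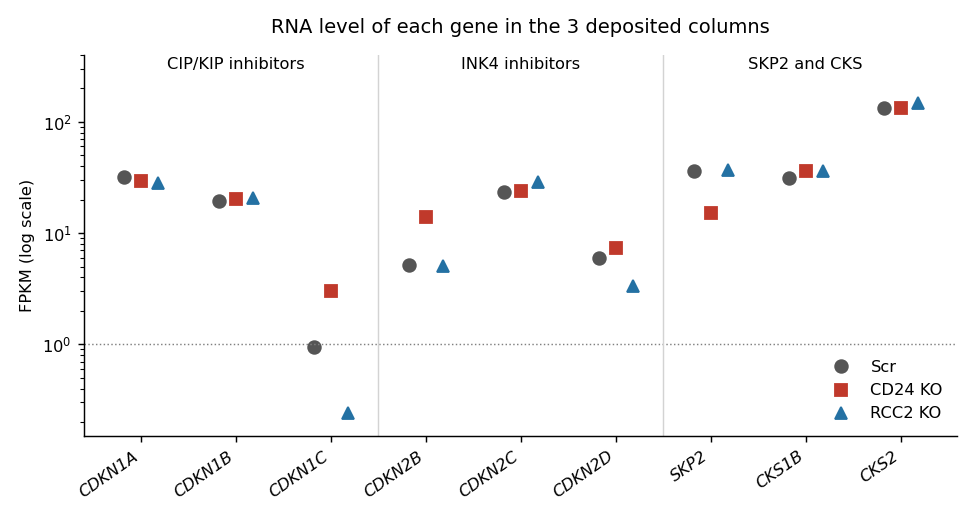
RNA level of the 9 genes in FPKM on a log axis, with 1 point per gene for the column labelled Scr (grey circles), CD24 KO (red squares) or RCC2 KO (blue triangles) and no error bar, since a condition has 1 value. The dotted line marks 1 FPKM. SKP2 is lower, and CDKN2B and CDKN1C are higher, in the column labelled CD24 KO than in the other two, and the points of CDKN1A, CDKN1B, CKS1B and CKS2 nearly coincide.

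Ratios between genes of the same column do not depend on how the columns were scaled to each other. The FPKM ratio of SKP2 to CKS1B was 1.14 in Scr, 0.421 in CD24 KO and 1.03 in RCC2 KO. The ratio of SKP2 to SKP1, the adaptor that ties F-box proteins to the ligase core, was 0.276, 0.124 and 0.277. The ratio of CKS2 to CKS1B was 4.21, 3.73 and 4.14. SKP2 was therefore lower relative to both of its partners in the column labelled CD24 KO, whereas the CKS genes kept nearly the same proportion.

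The genes of p21 and p27 had nearly the same RNA level in all 3 columns. CDKN1B, which encodes p27, the main substrate of SKP2, was at 19.5 FPKM in Scr, 20.4 in CD24 KO and 20.5 in RCC2 KO, and the RCC2 KO value was 1.05 times the Scr value. Its log2 differences from Scr were 0.062 and 0.071. CDKN1A, which encodes p21, was at 31.9, 29.1 and 28.4 FPKM, with log2 differences of -0.13 and -0.16. With each column scaled to the same sum, CDKN1A was higher in CD24 KO than in Scr, by 0.079, so its direction there depends on the scaling. With SKP2 lower and CDKN1B nearly level in CD24 KO, the ratio of SKP2 to CDKN1B was 1.84 in Scr, 0.74 in CD24 KO and 1.8 in RCC2 KO. CDKN1B lies on chromosome 12 from 12870204 to 12875316 and CDKN1A on chromosome 6 from 36644237 to 36655116, at a position it shares with the noncoding gene DINO, which was under 0.14 FPKM in every column.

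CDKN1C, the imprinted gene of p57, was the lowest of the 9 genes in every column. It was at 0.941 FPKM in Scr, 2.99 in CD24 KO and 0.244 in RCC2 KO. The log2 differences from Scr were 1.04 in CD24 KO and -0.64 in RCC2 KO, so the columns labelled CD24 KO and RCC2 KO lay on opposite sides of Scr, and the difference between the knockouts was -1.68 for RCC2 KO against CD24 KO. These sizes depend on the pseudocount, because the levels are low. With a pseudocount of 5 the difference of CD24 KO from Scr was 0.43, with quantile normalization 0.93 and with a pseudocount of 0.1 1.57. The difference between the knockouts ranged from -3.17 with a pseudocount of 0.1 to -0.61 with a pseudocount of 5, where it was smaller than those of SKP2 and CDKN2B. CDKN1C lies on chromosome 11 from 2904448 to 2906995.

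Of the INK4 genes, CDKN2B was higher in the column labelled CD24 KO. CDKN2B encodes p15, whose gene is known as a target of TGF-β signaling, and was at 5.18 FPKM in Scr, 13.8 in CD24 KO and 5.03 in RCC2 KO. As with SKP2, Scr and RCC2 KO lay close together and CD24 KO apart, but in the other direction. The log2 difference from Scr was 1.26 in CD24 KO, exceeded by few genes since 98.8% were at or below it, and -0.035 in RCC2 KO. With a pseudocount of 5 the difference in CD24 KO was 0.89, short of 2-fold.

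The position of CDKN2B, chromosome 9 from 21994790 to 22121093, is shared in the table with its antisense gene CDKN2B-AS1, at 1.34, 2.48 and 1.14 FPKM in Scr, CD24 KO and RCC2 KO. The labels and the study's methods name different library kits, of which only the latter is stranded, and whether strand was used in the estimation is not given, so fragments of the pair may not have been separated. The ratio of CDKN2B to CDKN2B-AS1 was 3.88, 5.56 and 4.42. The listed span is that of the shared position and need not be the extent of CDKN2B itself. The remaining INK4 gene, CDKN2A, also encodes ARF. It lies 300 bases from the shared span, which need not be its distance from CDKN2B. CDKN2A was at 81.4, 140 and 104 FPKM, log2 differences from Scr of 0.77 and 0.35. The ratio of CDKN2B to CDKN2A was 0.0635 in Scr, 0.0989 in CD24 KO and 0.0484 in RCC2 KO.

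CDKN2C and CDKN2D are the genes of p18 and p19. They differed less than CDKN2B in CD24 KO against Scr and more than it in RCC2 KO against Scr. CDKN2C was at 23.6 FPKM in Scr, 23.7 in CD24 KO and 28.9 in RCC2 KO, with log2 differences from Scr of 0.0046 and 0.28. CDKN2D was at 6.0, 7.33 and 3.37 FPKM, with log2 differences of 0.25 and -0.68. The value of CDKN2D in RCC2 KO was the lowest log2 difference from Scr among the members in that column, and 2.69% of all compared genes were as low. In RCC2 KO against CD24 KO, CDKN2D differed by -0.93, and by -1.1 with a pseudocount of 0.1 or with each column scaled to the same sum. CDKN2C lies on chromosome 1 from 51434367 to 51440309 and CDKN2D on chromosome 19 from 10677138 to 10679655. Within this family the proportions differed between columns, as the ratio of CDKN2B to CDKN2C was 0.219 in Scr, 0.583 in CD24 KO and 0.174 in RCC2 KO.

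**Figure D2:**
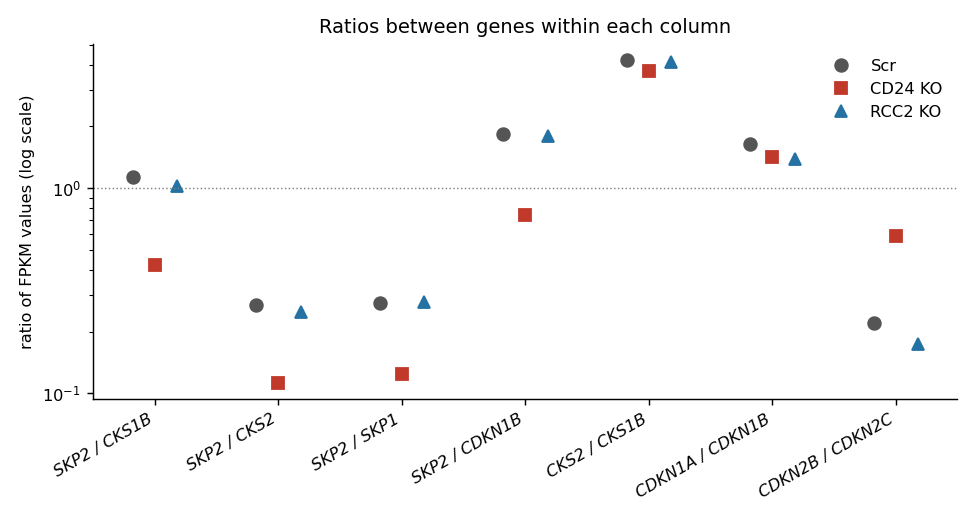
Ratios of FPKM values between 2 genes of the same column, on a log axis, with 1 point per column (grey circles Scr, red squares CD24 KO, blue triangles RCC2 KO, as labelled) and no error bar. The dotted line marks a ratio of 1. All 4 ratios with SKP2 as numerator are lowest in the column labelled CD24 KO, the ratio of CKS2 to CKS1B stays between 3.73 and 4.21, and that of CDKN2B to CDKN2C is highest in CD24 KO.

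The order of the FPKM levels differed between the columns. In Scr, CKS2 was highest, followed by SKP2, CDKN1A, CKS1B, CDKN2C, CDKN1B, CDKN2D, CDKN2B and CDKN1C. In the column labelled CD24 KO, SKP2 was at place 6, after CDKN1B, and CKS1B at place 2. In RCC2 KO, SKP2 was again at place 2, CKS1B was at place 3, and CDKN2C at place 4 was just ahead of CDKN1A. CDKN2B, at place 7 in both knockout columns, was ahead of CDKN2D there and behind it in Scr. Neighbours in these orders cannot be separated from each other, as there is no spread between libraries. The summed level of the 3 CIP/KIP genes was 52.4, 52.5 and 49.2 FPKM in Scr, CD24 KO and RCC2 KO, and that of the 3 INK4 genes was 34.8, 44.8 and 37.3 FPKM.

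Counted together, 2 of the 9 genes were at least 2-fold higher and 1 was at least 2-fold lower in the column labelled CD24 KO than in Scr, where 2.67% of all compared genes were at least 2-fold higher and 3.03% at least 2-fold lower. In the column labelled RCC2 KO, none of the 9 genes was past 2-fold in either direction, where 0.406% of all genes were at least 2-fold higher and 0.796% lower. Between the knockouts, RCC2 KO was at least 2-fold above CD24 KO for 1 gene, SKP2, and at least 2-fold below it for 2 genes, CDKN2B and CDKN1C, against 4.02% and 4.3% of all genes. The members were picked with these contrasts known, so nothing is read from these shares. They also depend on the scaling of the columns. Of the genes past 2-fold in CD24 KO, 46.8% were higher, and 72.7% were with each column scaled to the same sum, while in RCC2 KO against CD24 KO the share went from 48.3% to 23.8%. The median log2 difference of the 9 genes was 0.062 in CD24 KO, 0.043 in RCC2 KO and 0.0021 in RCC2 KO against CD24 KO, beside -0.034, -0.0036 and 0.017 for all genes compared. Both comparisons with Scr use the same control values, and RCC2 KO against CD24 KO leaves these out.

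**Figure D3:**
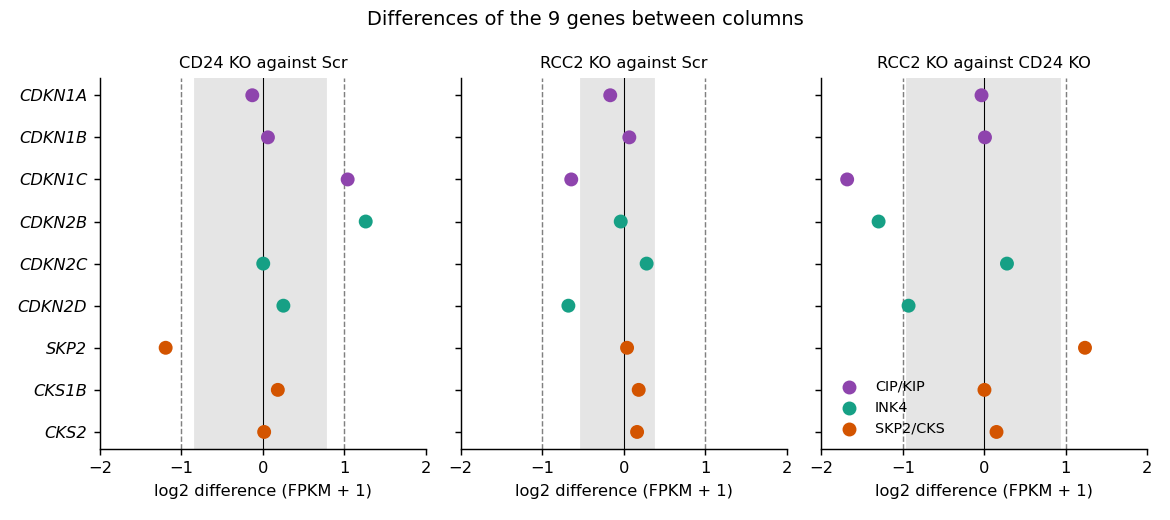
Differences of log2(FPKM + 1) for the 9 genes in the 3 comparisons, as labelled, with CIP/KIP genes in purple, INK4 genes in green and SKP2 and the CKS genes in orange. Dashed lines mark 2-fold and the grey band spans percentiles 5 to 95 of the 12822 genes compared. In CD24 KO against Scr, SKP2 lies below the band and CDKN2B and CDKN1C above it, and in RCC2 KO against Scr CDKN2D and CDKN1C lie below it.

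The lower SKP2 value stood among lower values of many cell cycle genes. All of the 20 proliferation markers were lower in the column labelled CD24 KO than in Scr, with log2 differences from -1.76 to -0.42 and a median of -1.06, and 12 of them were past 2-fold. With each column scaled to the same sum all 20 were still lower, with a median of -0.85 and 6 past 2-fold. RRM2, a subunit of ribonucleotide reductase, was at 138 FPKM in Scr and 40.1 in CD24 KO, and MKI67, the gene of the proliferation antigen Ki-67, was at 74.3 and 32.2 FPKM. The difference of SKP2 lay within the range of these 20 genes, whereas those of CKS1B, CKS2 and all 6 inhibitors lay above the highest of the 20. This placement of the 9 genes was the same with pseudocounts of 0.1 and 5 and with quantile normalization. It was also the same with each column scaled to the same sum. That scaling moves most genes by nearly the same amount and could hardly change it. The other filters and setting the median of all genes to 0 could not change the placement. In the column labelled RCC2 KO, the markers had a median of 0.056, with 13 higher and 7 lower, and none was past 2-fold. In bulk samples, fewer dividing cells and less RNA per cell cannot be told apart. The part of the proliferation markers in the SKP2 value was not tested.

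The partners of SKP2 in the ligase were lower by less. Of 11 genes of the SCF core and of NEDD8 conjugation, which activates it, 10 were lower in the column labelled CD24 KO, with a median log2 difference of -0.34 and none past 2-fold. With each column scaled to the same sum 7 were lower and 4 higher, with a median of -0.13. RBX1, the RING subunit, was at 38.2 FPKM in Scr, 19.2 in CD24 KO and 33.4 in RCC2 KO, and CUL1, the scaffold, was at 57.6, 32.7 and 61.3 FPKM. Their log2 differences from Scr in CD24 KO were -0.95 and -0.80. In RCC2 KO the median of these genes was 0.040, with 7 higher and 4 lower. Of 10 other F-box genes, none was past 2-fold in any comparison, although FBXO4 was higher by at least 2-fold in CD24 KO under each of 3 other scalings, and their median was 0.017 in CD24 KO and 0.064 in RCC2 KO. FBXO4 was at 10.6, 22.1 and 11.2 FPKM, a log2 difference of 0.99 in CD24 KO, and CCNF at 9.78, 5.66 and 10.6 FPKM, a log2 difference of -0.70, so F-box genes differed in both directions.

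The anaphase-promoting complex (APC/C) marks SKP2 itself and mitotic regulators for removal. Of 19 genes for its subunits, activators, inhibitor and E2 enzymes, 14 were lower and 5 higher in the column labelled CD24 KO, with a median of -0.35, and 2 were past 2-fold, both lower. These were CDC20, an activator, at 65.0, 27.1 and 68.0 FPKM in Scr, CD24 KO and RCC2 KO, and UBE2C, an E2 enzyme, at 133, 59.2 and 137 FPKM. FZR1, the activator that directs the complex to SKP2, was at 13.8, 10.1 and 13.9 FPKM, and was named after its values had been seen. ANAPC15 was past 2-fold only between the knockouts, at 23.6 FPKM in CD24 KO and 49.6 in RCC2 KO. Of 9 genes of other ubiquitin routes to CIP/KIP proteins, among them the CRL4 ligase that removes p21 bound to PCNA, 8 were lower in CD24 KO with a median of -0.20 and none past 2-fold, but with each column scaled to the same sum 5 were higher and the median was 0.0070. PCNA was at 123, 61.5 and 122 FPKM, and DTL, the receptor of that ligase, at 22.7, 15.1 and 23.7 FPKM.

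The genes of the kinases that the inhibitors act on, and of their cyclins, were lower as well, the kinases by less than 2-fold. Of 12 cyclin and CDK genes, 11 were compared, and all 11 were lower in the column labelled CD24 KO, with a median log2 difference of -0.51. The log2 differences there were -0.73 for CDK1, -0.43 for CDK2, -0.51 for CDK4 and -0.24 for CDK6. CDK6 was low, at 1.61 FPKM in Scr and 1.21 in CD24 KO. The values of these kinase genes were added after they had been seen. CCNB1 was at 94.5, 40.4 and 115 FPKM in Scr, CD24 KO and RCC2 KO, and CCNA2 was at 42.0, 18.9 and 45.5 FPKM, and these 2 cyclin genes were past 2-fold. Both are also among the 20 proliferation markers, as are CDK1, CDC20 and PCNA. With each column scaled to the same sum, all 11 were still lower, with a median of -0.30 and none past 2-fold, while the median of all genes compared went from -0.034 to 0.15. In RCC2 KO, 7 of the 11 genes were higher and 4 lower, with a median of 0.11.

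Genes known to act on the transcription of CDK inhibitors moved in both directions. Of 17 such genes 16 were compared, with 9 higher and 7 lower in the column labelled CD24 KO and a median of 0.13. EZH2, the histone methyltransferase known to repress the INK4 locus, was the only one past 2-fold, though not with each column scaled to the same sum or with quantile normalization, and was at 34.8, 15.99 and 39.0 FPKM in Scr, CD24 KO and RCC2 KO. In RCC2 KO, SMAD2, a mediator of TGF-β signals, was at 15.3 FPKM against 25.8 in Scr, a log2 difference of -0.71, and was named after its values had been seen.

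**Figure D4:**
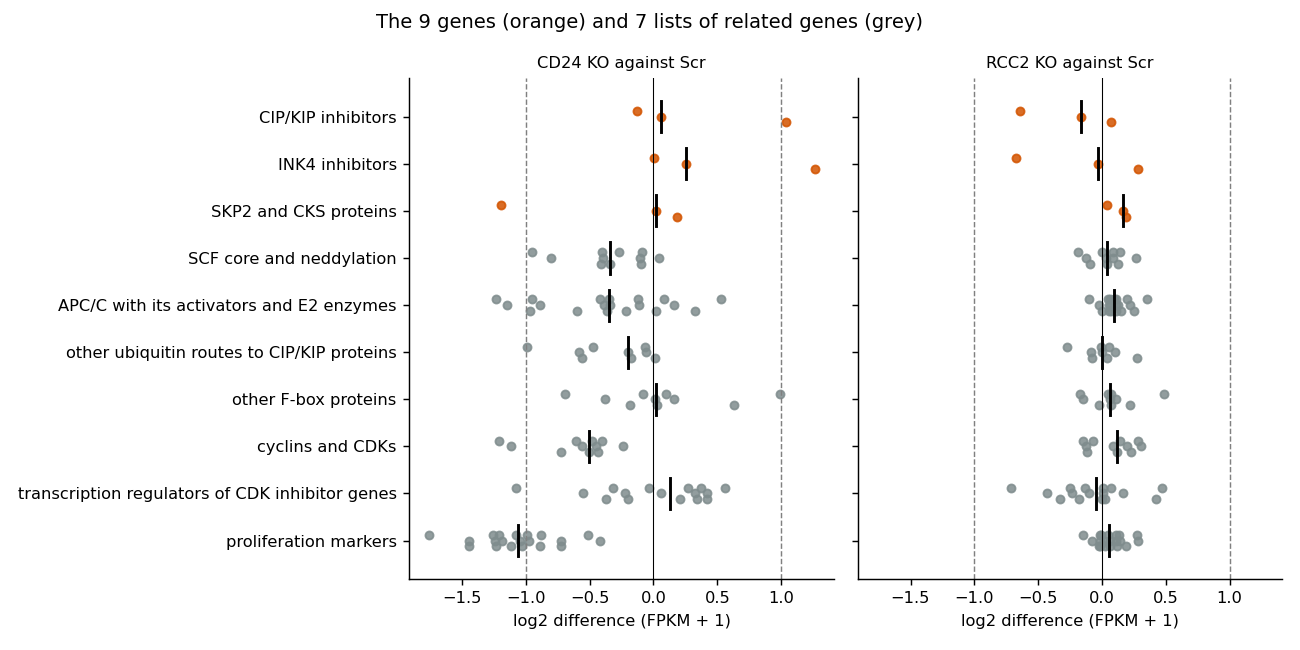
Differences of log2(FPKM + 1) from Scr in the columns labelled CD24 KO (left) and RCC2 KO (right), with 1 point per gene compared, a black bar at the median of each list and dashed lines at 2-fold. The 9 genes are orange, in 3 rows by role, and the genes of the 7 lists of related genes are grey. In CD24 KO all 20 proliferation markers and all 11 cyclin and CDK genes lie below 0, and SKP2 is the only orange point below -1, whereas in RCC2 KO no point reaches either dashed line.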

How the data were processed

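RNA-Seq of DU145 cells gave 1 deposited table with 3 columns of FPKM, 1 per condition, from 6 labelled libraries. The submitters' processing notes name HISAT, StringTie, Cufflinks and GATK, without roles, and the authors' FPKM values were used as deposited. The genome build is not given in the sources used here. Only 15.8% of the 24864 symbols that occur once in GENCODE 29 overlapped the GRCh38 gene there. Coordinates were therefore read as hg19 and written from 1, and RefSeq promoters were matched by symbol only.

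Genes that reached 1 FPKM in any column entered the comparisons, as differences of log2(FPKM + 1), and 2-fold was the threshold. With 1 value per condition no test, SD or leave-one-out analysis was possible. The members and the 7 lists of related genes, written from general knowledge, were chosen with earlier results of these data known.

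Named were the members, the targeted genes, CDKN2A, list genes past 2-fold in any comparison (otherwise the 2 with the largest difference), genes within 50 kb of a member, and the 3 genes nearest in pattern to a member past 2-fold. Proliferation markers past 2-fold and neighbours are given by examples and counts. Some further genes are not reported here. Alternatives were other filters, pseudocounts, scalings and fold minimums. The calculation was tested on simulated data. Python 3.11.15, NumPy 2.4.6, pandas 2.3.3 and matplotlib 3.10.9 were used.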

Additional observations from a re-analysis of the deposited data

How the results depend on the processing

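No paired analysis was possible because the table holds 1 value per gene and condition, with no value for replicate libraries. The 27 member differences and 7 alternatives of filter, pseudocount and scaling gave 186 values. Of these, 167 kept their sign and their side of 2-fold and moved by no more than 1.5-fold. Another sign was seen for 9, all of them short of 2-fold in the values reported. A filter does not alter the value of a gene that passes it, so the values under the other filters could not move. The count of members past 2-fold in CD24 KO against Scr was 3. It was 1 with a pseudocount of 5 (SKP2) and 0 at a 3-fold minimum. It was 2 with each column scaled to the same sum (without SKP2) and 2 with quantile normalization (without CDKN1C). For RCC2 KO against Scr it was 0, but 1 with a pseudocount of 0.1 (CDKN1C) and 2 at a 1.5-fold minimum. For RCC2 KO against CD24 KO it was 3, but 1 with a pseudocount of 5 (SKP2) and 1 at a 3-fold minimum (CDKN1C). With CDKN2D added, it was 4 with a pseudocount of 0.1, with columns scaled to the same sum and at a 1.5-fold minimum. The median of the members in that comparison, 0.0021, was -0.19 with columns scaled to the same sum, -0.015 with the median of all genes set to 0 and -0.15 with quantile normalization. SKP2 ranged from -1.24 to -0.99 in CD24 KO against Scr and CDKN2B from 0.89 to 1.46. With at least 1 FPKM in every column, CDKN1C was not compared. Replicate spread and depth are unknown, so small differences cannot be judged.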

Other observations

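Distances here are between listed positions, which can cover several genes. The table has 39 genes that overlap a member or lie within 50 kb of it, of which 23 were compared, and 1 of these was past 2-fold in any comparison. This was PBXIP1, 18479 bases from CKS1B, at 20.02 FPKM in the column labelled Scr, 41.6 in that labelled CD24 KO and 10.3 in that labelled RCC2 KO. Among the neighbours of CDKN2B, the log2 differences of CD24 KO from Scr were 0.77 for CDKN2A, 0.64 for CDKN2A-AS1 and 0.58 for CDKN2B-AS1, beside 1.26 for CDKN2B. CDKN2A-AS1, at 0.378, 1.15 and 0.969 FPKM in Scr, CD24 KO and RCC2 KO, passed the filter through CD24 KO alone. CDKN2B-AS1 shares the position of CDKN2B, and their fragments may not have been separated. Nothing is therefore read from the shared direction. LMBRD2, 130 bases from SKP2 in the table, was at 17.7, 15.1 and 19.7 FPKM, a log2 difference from Scr of -0.22 in CD24 KO against -1.19 for SKP2. In the imprinted region around CDKN1C, SLC22A18 was at 8.32, 9.84 and 7.24 FPKM, PHLDA2 at 59.9, 47.2 and 61.8 FPKM, and the noncoding KCNQ1OT1 was listed at 0 in every column. Around CDKN2D, SLC44A2, 33466 bases away, was at 69.8, 60.4 and 46.6 FPKM, a log2 difference of -0.57 in RCC2 KO beside -0.68 for CDKN2D. ATG4D and KRI1, both listed nearer at 436 bases, differed there by -0.082 and -0.021. This equal distance is to a position they may share and need not be that of each gene. AP1M2 and S1PR5 differed by -0.14 and -0.19.

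The genes nearest to a member in their 2 log2 differences from Scr were sought among 8125 genes with at least 5 FPKM in every column. Likeness was measured as the Euclidean distance between the 2 differences, which rests on 3 columns and is a description. For SKP2 these were CYBA, CDC6 and XRCC3, at distances of 0.0094, 0.00972 and 0.0143, and 41 genes lay within 0.1. CDC6, which loads the replicative helicase, was at 34.8, 14.5 and 35.8 FPKM in Scr, CD24 KO and RCC2 KO. For CDKN2B they were ZBTB10, WISP2 and BASP1, at distances of 0.0703, 0.0974 and 0.118, with 2 genes within 0.1. For CDKN1C they were TSPYL2, TGM2 and RAB31, at distances of 0.0252, 0.0733 and 0.0843, with 4 genes within 0.1. These distances depend on the pseudocount, since CDKN1C is low and the genes searched are not. With a pseudocount of 0.1, CDKN1C differed from Scr by 1.57 in CD24 KO and -1.6 in RCC2 KO. The search was not repeated with another pseudocount. TGM2, a transglutaminase, was at 128, 254 and 84.2 FPKM.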
